A study of Mus musculus with 2 samples.

Results

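The genes described here encode the translation initiation and elongation factors of mouse skeletal muscle, chosen by name. Members were the probe sets that the platform annotation names for a single gene whose symbol begins with Eif1 to Eif6 or with Eef, leaving out Eif4ebp1. This gave 58 genes on 153 probe sets, of 34958 probe sets with a single gene symbol and 45101 on the array. Each probe set combines several short oligonucleotides designed against the same transcript. Because the choice was made by name, it also took in enzymes that act on these factors, such as the eIF2 kinases and the methyltransferases of eEF1A.

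Protein synthesis begins when eIF2, loaded with GTP and the initiator tRNA, joins the small ribosomal subunit together with eIF1, eIF1A, eIF3 and eIF5. The eIF4 proteins bind the cap of the mRNA, unwind its leader and bring it to that complex, while eIF2B recharges eIF2 with GTP after each round. During elongation, eEF1A delivers aminoacyl-tRNAs to the ribosome and eEF2 moves the ribosome along the mRNA. In muscle this machinery is known for its response to insulin, amino acids and load, mostly through phosphorylation of the factors, which transcript levels do not report.

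Transcripts were compared between control mice, which are wild-type C57BL6 mice without a transgene, and RXRγ mice, which came from 1 transgenic line and carry RXRγ under the human α-actin promoter and overexpress it in skeletal muscle. Both groups were females at 4 months of age, with no drug treatment named in the labels. RNA was pooled within each genotype, 5 samples per pool in the design text and 3 animals in the extraction protocol, and each pool was hybridized to 1 Affymetrix array. With 1 array per genotype there is no replicate error and no test between the genotypes, and the differences below describe these 2 arrays. A pool of whole muscle also cannot tell a change per cell from a change in the share of a cell type.

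The deposited signals are on a linear scale in array units, with a trimmed mean of 100 on both arrays and 8091 and 8128 probe sets above 150 in control and RXRγ mice. For Rxrg, the transgene's gene, RXRγ mice showed 9172.1 and control mice 334.5. The 9 markers of muscle fibres listed were above 250 on both arrays, with Acta1 at 10998.7 (control) and 10439.9 (RXRγ). Their summed level was 77361.5 (control) and 64611 (RXRγ), and Ckm, Myh2 and Myh4 were lower by the threshold given below. Probe sets disagreed in size, with log2 ratios of RXRγ over control of -1.39 and -0.11 for Ckm and -0.77 and -0.06 for Myh4. Myh2 rests on 1 probe set above 250. Summed levels here add each gene's mean signal over its probe sets, dim ones included. Of 6 markers of developing or regenerating muscle, Myh8, the perinatal myosin, had 9704.6 against 53.8, while the other 5 stayed under 250 on both arrays. The summed level of 5 macrophage markers was 949.6 (control) and 1114.4 (RXRγ), and that of 4 fibroblast markers was 4192.2 and 4518.0. Those of 5 endothelial and 4 smooth muscle markers were 654.1 and 494.3, and 455.1 and 381.6. No endothelial marker and only 1 smooth muscle marker was above 250 on either array. The summed levels for 3 adipocyte and 2 Schwann cell markers were 2798.2 and 3158.9, and 126.2 and 126.6, and 3 erythroid markers stayed under 50 throughout. The part of these markers in the results was not tested. Eif2s3y, a Y-linked member, reached 4.2 and 2.8 on the respective arrays, both labelled as female.

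A gene counted as measured when a probe set had a signal above 250 on the brighter array. Its value is the mean log2 ratio of RXRγ over control mice across those probe sets, and a gene counted as higher or lower past 0.4 in that log2 ratio. Of the 58 genes, 41 were measured on 74 probe sets, and none of these probe sets was under 150 on the dimmer array. Most of the measured factors differed little between the genotypes. Of the 41, 4 were higher in RXRγ mice, against 16.8% of all 3780 measured genes, and 5 were lower, against 20.1% of all. These are shares of 9.76% and 12.2%, so at these settings calls were not more frequent among the factors than on the arrays as a whole. The median log2 ratio of the factors was -0.04, and that of all measured genes was also -0.04. None of the factors reached 1 on the log2 scale in either direction, which 5.05% of all measured genes did upward and 4.1% downward. The higher genes were Eif4h, Eef1a1, Eif3l and Eif4e, and the lower genes were Eef2k, Eef1akmt1, Eif2s2, Eif2b2 and Eif4e3. Where each array is scaled to its median instead, the median of all genes shifts by -0.11, the same 4 factors are higher and 11 are lower. This compares with 13.1% of all genes higher and 26.5% lower, so the lower share is about that of all genes. Where a signal above 500 is asked for, the same 4 are higher, against 16.4% of all genes, and Eif2s2 and Eif2b2 are lower, against 21.2%. Counted by probe set, 9 of 74 are higher and 18 lower, against 17.2% and 20.9% of all. Probe sets of the same gene are not independent, and 5 of the 18 belong to Eif2s2.

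**Figure D1:**
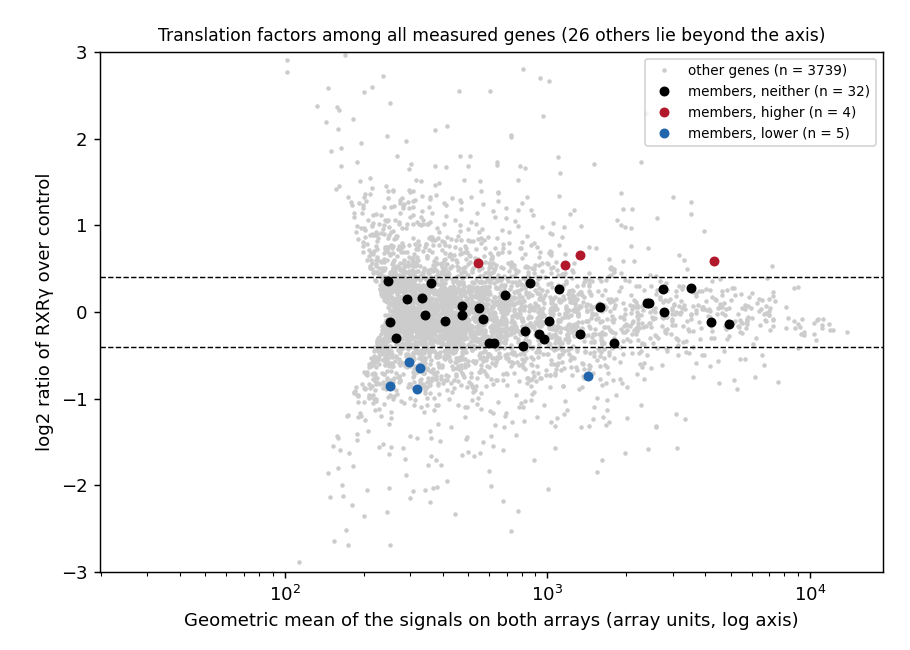
log2 ratio of RXRγ over control mice against the geometric mean of both signals in array units, on a log axis, 1 point per measured gene. Grey points are the 3739 other genes and the dashed lines stand at -0.4 and 0.4; the 41 translation factors, in black, red (4 higher) and blue (5 lower), lie between -0.88 and 0.66, while 26 other genes lie beyond 3 on the log2 scale and are not drawn.

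**Figure D2:**
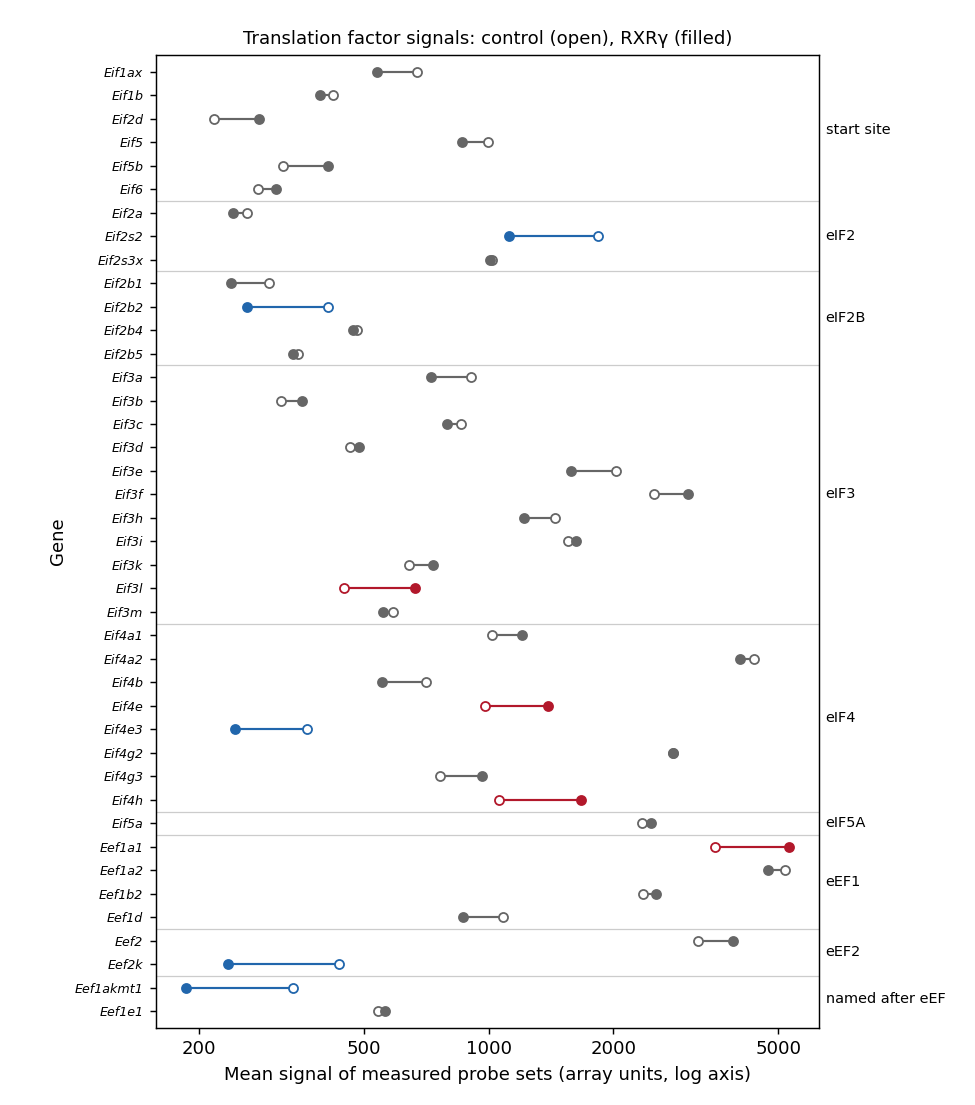
Mean signal, in array units on a log axis, of the measured probe sets of each of the 41 factors, with open circles for control and filled circles for RXRγ mice, grouped by role, 1 array per genotype and so no error bars. Red marks the 4 higher genes and blue the 5 lower genes; the open and filled circles of Eif4g2, at 2781.8 and 2789.5, cover each other, and those of Eef2k, at 434.7 and 235.5, lie furthest apart.

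The eIF4 proteins, which recognise the cap and unwind the mRNA leader, went both ways. Of 10 genes, 8 were measured, 2 were higher and 1 was lower, and the median log2 ratio was 0.14. Of all measured genes, 16.8% were higher and 20.1% lower, and 8 genes are too few to set apart from these shares. Eif4h encodes a cofactor that stimulates the helicase eIF4A, and it had the highest log2 ratio of all measured factors, 0.66. Its 3 measured probe sets had signals of 1936.6 against 1185.6, 2215.7 against 1447.5 and 865.5 against 545.7 in control mice. These are differences of 1.63-, 1.53- and 1.59-fold in the same direction. All 3 belong to the kinds of probe set whose names end in _s_at or _x_at, which can match more than 1 transcript, and without such probe sets Eif4h was not measured.

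Eif4e encodes the cap-binding protein itself and was higher at both of its measured probe sets. RXRγ mice had 776.3 and 1999.5 there, against control signals of 497.3 and 1462.1, differences of 1.56- and 1.37-fold. The mean log2 ratio was 0.55. A further probe set at 151.7 against 142.9 lowers it to 0.39, under the threshold, when signals above 150 are admitted. Eif4e3, a more distant relative that also binds the cap, was lower in RXRγ mice. Its probe sets had 251.4 against 361.0 and 236.6 against 367.9, log2 ratios of -0.52 and -0.64. A further relative, Eif4e2, stayed under 250 on both arrays, at 242.2 and 227.7 for its brightest probe sets in RXRγ and control mice. These 3 cap-binding genes were therefore not alike on these arrays, 1 being higher, 1 lower and 1 not measured. Eif4e1b, of the same family, was not among the members.

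The helicase genes differed less. Eif4a1 had log2 ratios of 0.04, 0.23 and 0.53 at its 3 probe sets, with a mean of 0.27 that did not reach the threshold. Eif4a2, its close relative, had 4027.5 against 4372.6. Eif4b, another cofactor of the helicase, had log2 ratios of -0.24, -0.41 and -0.42 and a mean of -0.36, in the direction opposite to Eif4h. Among the scaffold proteins that hold cap and ribosome together, Eif4g3 had 965.4 against 763.0 (log2 ratio 0.34). Eif4g2, which lacks the site that binds eIF4E, had a mean signal of 2789.5 against 2781.8.

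To show the sequence around the start of the genes named above, promoters were taken from RefSeq on GRCm38.p6, whose table holds 48 of the 58 genes and 7 of the 9 that were higher or lower. The 250 bases before each annotated start were searched on both strands for AGGTCA, the half-site to which nuclear receptors such as RXR bind, and for CACGTG, the E-box bound by MYC and related factors, which reads the same on both strands. The half-site was found in 14% of all 32851 promoters, in 13.5% of the measured genes and in 2 of the 33 measured factors in the table, Eif2s3x and Eif5a. None of the 7 genes that were higher or lower held it. The E-box was found in 6.02% of all promoters, in 10.5% of the measured genes and in 9 of the 33 factors, which is 27.3%. These 9 were Eef2, Eef2k, Eif1b, Eif3f, Eif3k, Eif4a1, Eif4e, Eif4h and Eif5a, with log2 ratios from -0.88 to 0.66. A match is a run of letters and not a shown site of binding. The sequences of the genes with the letters among those higher or lower, and of Eef1a1 without them, are given 5′ to 3′ up to the base before the start, with each E-box in capitals. They lie at chr3:138527018-138527267 on the + strand for the downstream of 2 starts of Eif4e, chr5:134639410-134639659 on the - strand for Eif4h, chr7:120842581-120842830 on the + strand for the most upstream of 3 starts of Eef2k, and chr9:78481725-78481974 on the - strand for Eef1a1.
Eif4e: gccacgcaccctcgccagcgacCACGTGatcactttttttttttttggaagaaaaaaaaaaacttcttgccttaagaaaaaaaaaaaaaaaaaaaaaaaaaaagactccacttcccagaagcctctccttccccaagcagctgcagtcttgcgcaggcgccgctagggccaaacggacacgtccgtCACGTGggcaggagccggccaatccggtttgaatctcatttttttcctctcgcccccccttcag
Eif4h: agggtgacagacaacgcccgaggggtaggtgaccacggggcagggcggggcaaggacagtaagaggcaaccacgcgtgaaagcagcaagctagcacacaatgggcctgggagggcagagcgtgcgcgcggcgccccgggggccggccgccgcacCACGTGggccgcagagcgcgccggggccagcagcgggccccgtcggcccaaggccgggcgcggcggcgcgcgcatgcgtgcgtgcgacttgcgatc
Eef2k: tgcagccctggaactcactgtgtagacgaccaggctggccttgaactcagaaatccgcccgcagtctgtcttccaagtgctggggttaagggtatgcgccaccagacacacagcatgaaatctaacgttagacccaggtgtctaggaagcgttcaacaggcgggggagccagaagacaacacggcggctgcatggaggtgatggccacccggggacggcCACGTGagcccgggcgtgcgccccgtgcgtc
Eef1a1: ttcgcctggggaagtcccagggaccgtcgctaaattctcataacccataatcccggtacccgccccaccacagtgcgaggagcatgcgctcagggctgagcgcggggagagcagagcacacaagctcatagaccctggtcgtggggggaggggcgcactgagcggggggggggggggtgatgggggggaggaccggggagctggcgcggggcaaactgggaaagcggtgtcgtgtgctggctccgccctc
The E-boxes begin 228 and 64 bases before the start in Eif4e, 96 bases before it in Eif4h and 31 bases before it in Eef2k. Eif4e and Eif4h were higher in RXRγ mice and Eef2k was lower. The other annotated starts of Eif4e and Eef2k did not hold the letters, and their relation to the differences was not tested.

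The subunit genes of eIF2 and of its exchange factor eIF2B had log2 ratios below 0 where measured. Of 6 measured, 2 were lower, none was higher and the other 4 had log2 ratios between -0.30 and -0.03. The median of all measured genes was -0.04, with 16.8% of them higher and 20.1% lower, and 6 genes are too few to set apart from these shares. Eif2s2, the β subunit of eIF2, had 5 measured probe sets, which were lower in RXRγ mice without exception. Their signals were 2193.4 against 3368.0 in control mice, 1434.6 against 2113.2, 845.0 against 1360.0, 848.2 against 1917.9 and 266.8 against 421.7. The log2 ratios ran from -1.18 to -0.56 with a mean of -0.74, so the probe sets differed in size and not in direction. A sixth probe set, at 31.9 against 22.6, was too low to be counted. Eif2s3x, the X-linked γ subunit, had log2 ratios of -0.40, -0.01 and 0.08 and a mean of -0.11. The value of 0.08 belongs to its brightest probe set, so its sign depended on the setting. Eif2a, which despite its name is no subunit of eIF2 but a separate factor for initiator tRNA, had 241.4 against 261.2.

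Among the subunits of eIF2B, Eif2b2, the β subunit, was lower at both measured probe sets, with 344.8 against 536.8 in control mice and 178.1 against 281.3. The log2 ratios of -0.64 and -0.66 lay closer together than those of any other of the 18 factors with several measured probe sets. Eif2b1 had 239.2 against 295.0 (log2 ratio -0.30). Eif2b4 and Eif2b5, the δ and ε subunits, had log2 ratios of -0.03 and -0.04. Eif2b3, the γ subunit, just missed the signal of 250, at 136.5 (RXRγ) and 240.6 (control). The subunits of 1 complex thus ranged from near equality to a 1.57-fold difference. The kinases that phosphorylate eIF2 and so block eIF2B were not measured. Eif2ak1 reached 239.1 (control) and 208.0 (RXRγ), while Eif2ak2, Eif2ak3 and Eif2ak4 stayed under 100 on both arrays.

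The 11 subunit genes of eIF3, the large scaffold on the small ribosomal subunit, were measured without exception. Their median log2 ratio was 0.05, and 1 was higher, none was lower and 10 lay within the threshold. Among all measured genes, 16.8% were higher, 20.1% lower and 63.1% within it. Eif3l had 665.5 against 448.3 in control mice, a 1.48-fold difference on 1 measured probe set, and its other probe sets were under 100. Eif3f, Eif3k and Eif3b had log2 ratios of 0.27, 0.19 and 0.16. On the other side, Eif3e had -0.36, with -0.43, -0.37 and -0.29 at its 3 probe sets, and Eif3h had -0.25. Eif3a, the largest subunit, came nearest to a call, at a mean of -0.396 and with probe sets that disagreed in size (-0.74, -0.35 and -0.10). Eif3c showed the widest span of all measured factors. Its probe sets were at -0.75, -0.11, -0.02 and 0.02, and that at -0.75 had 250.1 against 420.9 while the other 3 were nearly equal on the arrays. Eif3d, Eif3i and Eif3m had log2 ratios of 0.07, 0.05 and -0.08.

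**Figure D3:**
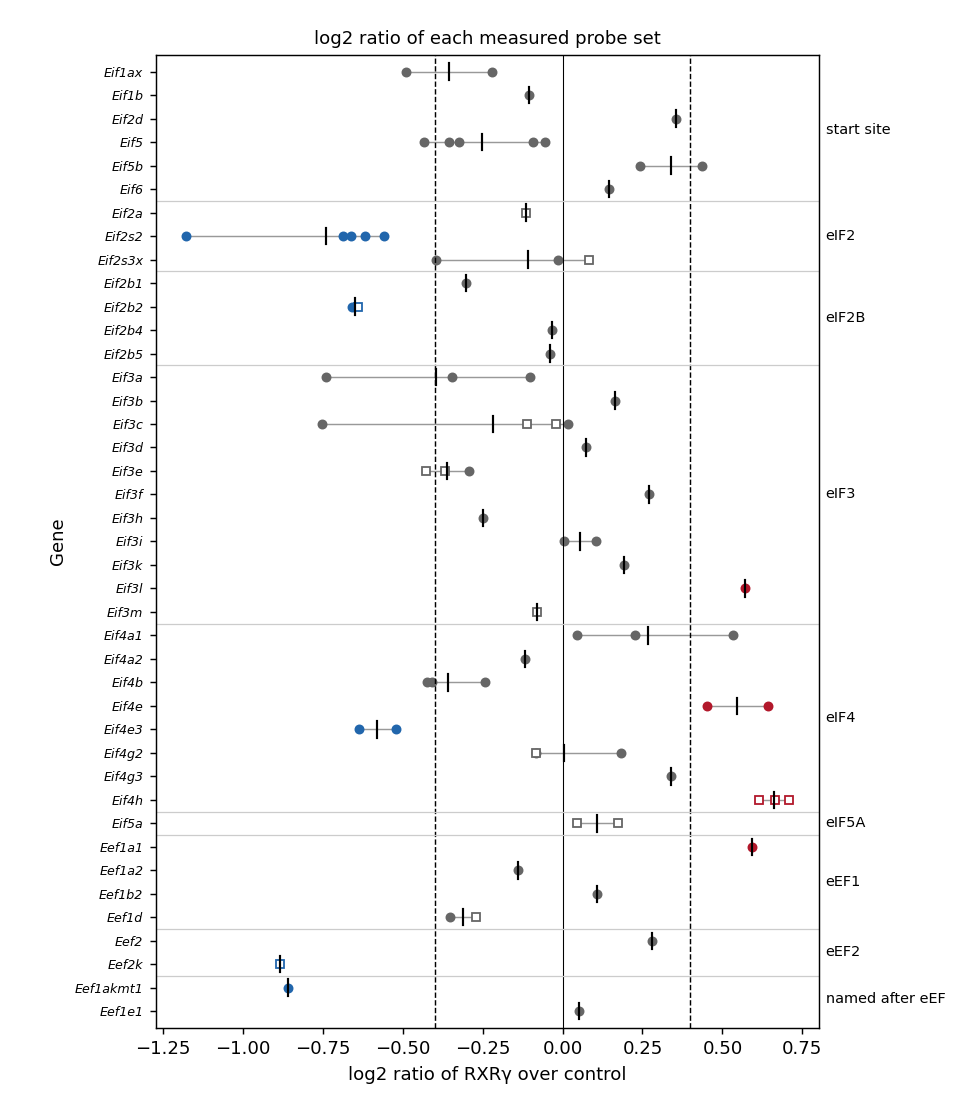
log2 ratio of RXRγ over control mice at each of the 74 measured probe sets, grouped by gene and role, with the gene's mean as a black bar and dashed lines at 0.4 in either direction. Filled circles are ordinary probe sets and open squares those ending in _s_at or _x_at; the 5 probe sets of Eif2s2 lie to the left of -0.4, and those of Eif3c spread from -0.75 to 0.02.

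The spread between probe sets of the same gene is the nearest thing to an error that these arrays offer, although it reflects the probes and not the animals. Of the 41 measured factors, 18 had more than 1 measured probe set, and their log2 ratios spanned a median of 0.19. Over all 1213 genes with several measured probe sets the median span was 0.20. The largest span, 0.77 in Eif3c, exceeded the log2 ratio of every higher gene. Of the 9 genes that were higher or lower, Eif4h, Eif4e, Eif2s2, Eif2b2 and Eif4e3 had several measured probe sets, and in each of these 5 genes the probe sets were beyond 0.4 on the same side. Eef1a1, Eif3l, Eef2k and Eef1akmt1 rested on 1 measured probe set.

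Factors that act at the start codon and at the joining of the subunits showed no call. Of 8 such genes, 6 were measured, with a median log2 ratio of 0.02, and 63.1% of all measured genes also lay within the threshold. Eif1ax, which keeps the scanning ribosome open, had -0.22 and -0.49 at its probe sets, and Eif5, which triggers GTP hydrolysis by eIF2, had 5 probe sets between -0.43 and -0.05. Eif5b, which joins the large subunit, went the other way, with 499.5 against 369.0 and 318.9 against 269.7 and a mean log2 ratio of 0.34. Eif2d, which can bring initiator tRNA to the ribosome by another route, had 279.1 against 218.1 at its measured probe set and 159.4 against 214.5 at another, so its direction was not shared by its probe sets. Eif1b and Eif6 had log2 ratios of -0.10 and 0.15. Eif5a, which helps the ribosome past difficult peptide bonds, had 3927.0 against 3805.1 and 1000.6 against 887.9.

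Among the elongation factors, the isoforms of eEF1A parted. Eef1a1 encodes the form found in most tissues, and Eef1a2 the form that replaces it in mature muscle fibres and neurons. Eef1a1 reached 5297.2 in RXRγ mice from 3511.2 in the controls, 1.51-fold higher with a log2 ratio of 0.59. Eef1a2 had 4708.1 and 5182.5, a log2 ratio of -0.14. Each rests on 1 probe set. Eef1a1 has many near-identical copies in the genome, and a probe set cannot tell them apart where they are transcribed. The perinatal myosin gene Myh8 was higher on the same array, as given above, and its relation to Eef1a1 was not tested. The exchange factor subunits of eEF1 stayed within the threshold, Eef1b2 with 2533.5 against 2350.1 and Eef1d with log2 ratios of -0.35 and -0.27.

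Eef2 and the kinase that inactivates its product differed in opposite directions. Eef2 had 3884.9 against 3198.9 in control mice, a log2 ratio of 0.28 that did not reach the threshold. Eef2k, the calcium-dependent kinase that phosphorylates eEF2 and slows elongation, had 235.5 against 434.7. Its log2 ratio of -0.88 was the lowest of all measured factors. The measured probe set of Eef2k is of the _s_at kind. The 2 others were under 150 on both arrays, at 75.5 against 119.2 and 39.8 against 92.6, too low for a fold. Eef1akmt1, a methyltransferase that modifies a lysine of eEF1A, had 186.4 against 337.7, a 1.81-fold difference. Its 3 other probe sets did not reach 250 and were also lower in RXRγ mice, at 125.7 against 210.4, 137.1 against 224.7 and 148.0 against 229.4. Eef1e1, a part of the complex of aminoacyl-tRNA synthetases, had 561.4 against 541.6.

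Of the 17 genes that were not measured, 8 stayed under 50 on both arrays. These include Eif5a2, the second gene for eIF5A, and Eif4a3 at the probe set named for it alone. Eif1ad came closest to the signal of 250, at 244.6 (RXRγ) and 154.7 (control) for its brighter probe set. Eif4ebp2, a repressor that holds eIF4E, reached 216.4 (control) and 166.0 (RXRγ), and Eif4enif1, which carries eIF4E into the nucleus, 174.4 and 181.6. A further 8 probe sets name a factor together with another gene and were not used. Eef1g is among the genes named only together with another gene, and Eif2s1, Eif3g and Eif4g1 were not analysed here.

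The other genes of translation were read from 5 lists. Among all 3780 measured genes, 16.8% were higher and 20.1% lower. Of 22 regulators of cap binding and initiation, 12 were measured, 3 were higher and 3 lower, with a median log2 ratio of -0.06. Eif4ebp1, the repressor of eIF4E that insulin signalling releases, had a mean signal of 1044.5 against 404.7 (log2 ratio 1.37, with 1.35 and 1.39 at its probe sets). Its log2 ratio thus exceeded that of Eif4e, the protein it binds, which was 0.55. Pabpc4, a poly(A)-binding protein, was lower (log2 ratio -0.50), as was Larp1, which binds the leaders of mRNAs for translation factors (-0.47), while Bzw1, a mimic of eIF5, was higher (0.48). Of 24 genes of the mTORC1 pathway, which controls Eif4ebp1's product, 14 were measured, 3 were higher and 2 lower, with a median of -0.08. Mtor had 413.9 against 229.7, Deptor, an inhibitor of the mTOR kinase, 884.3 against 518.8, and Rragc, a GTPase that senses amino acids through the lysosome, 510.7 against 310.6. Ddit4l, another inhibitor, was lower, at 621.9 against 1840.8. The inhibitors Deptor and Ddit4l thus differed in opposite directions.

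Lists without a higher gene were those of tRNA charging, of mitochondrial translation and of termination. Of 22 genes of cytosolic aminoacyl-tRNA synthetases and their complex, 14 were measured and 4 were lower (median -0.20). The lower genes were Eprs, Lars, Aars and Rars, with log2 ratios of -0.53, -0.52, -0.44 and -0.43. Of 10 mitochondrial translation factors, 3 were measured and these 3 were lower, Gfm2 at 209.1 against 352.0, Mtif2 at 292.2 against 399.9 and Gfm1 at 441.7 against 600.8. Gfm2 passed 250 on the control array only, while Tufm just missed it, at 249.9 (RXRγ) and 236.7 (control). Among those not measured, Tufm, Tsfm, Mtif3, Mtrf1l and Mrrf had their highest signal in RXRγ mice and Guf1 in control mice. The count of 3 thus depends on the filter. Of 8 release, recycling and rescue factors, 5 were measured and 1 was lower, Abce1, which splits ribosomes after termination, at 367.5 against 566.2. Against 16.8% of all measured genes higher and 20.1% lower, these counts rest on few genes, and no difference between the lists was tested.

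**Figure D4:**
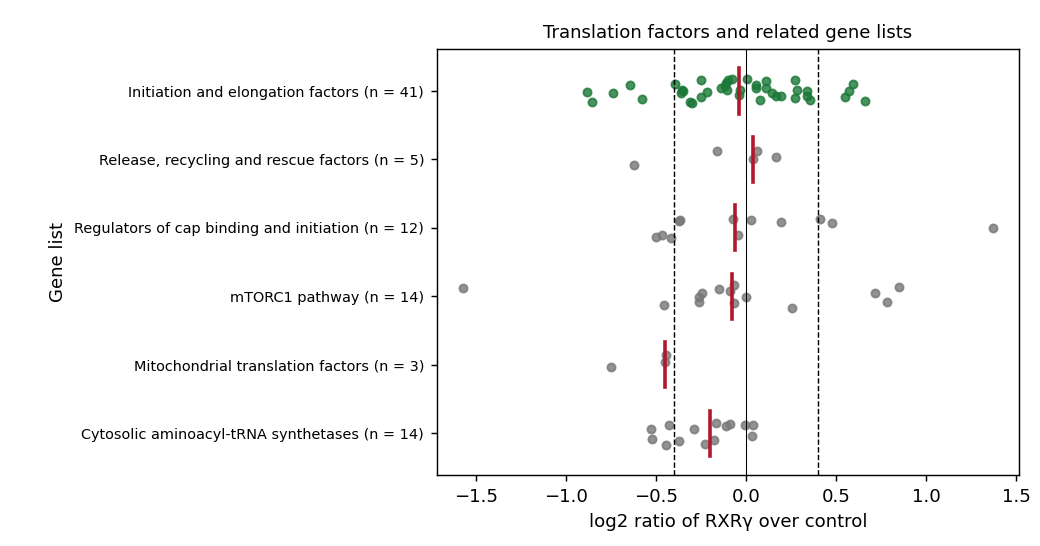
Difference between the arrays, as the log2 of RXRγ over control signal, for the 41 measured initiation and elongation factors (green) and of 5 related lists (grey). Each point is a gene, its height within a row has no meaning, red bars are medians and the dashed lines stand at -0.4 and 0.4; the medians lie at -0.04 for the factors, -0.20 for the tRNA synthetases and -0.45 for the 3 mitochondrial factors, and the outermost points belong to Ddit4l (-1.57) and Eif4ebp1 (1.37).

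Each of the 9 genes kept its sign under the 11 other ways of processing that gave it a value. Eef1a1, Eif3l, Eif2s2 and Eif2b2 had values under 11 of 11 and stayed beyond 0.4 in each, with log2 ratios of 0.50 to 0.67, 0.47 to 1.30, -0.84 to -0.53 and -0.75 to -0.51. Without a signal filter Eif2s2, at -0.53, was nevertheless not called lower, since its dimmest probe set was past 0.4 in the other direction. The value of 1.30 for Eif3l came without a signal filter, which admits probe sets at 2.1 and 29.4 in control mice. Eif4h and Eif4e3 were beyond 0.4 under 10 of 10, Eef1akmt1 under 9 of 9 and Eef2k under 8 of 8. Eif4e was so under 10 of 11. The floor of 150 could change none of these values, since no measured probe set was under it. Eef1a1 has 1 probe set, so the signal filters and the choice of probe sets could not change its value either. Eif3l, Eef2k and Eef1akmt1 had 1 measured probe set each. The stricter filters and the choice of probe sets could therefore only keep their values or leave them without one. Such settings are no check of these values.

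**Figure D5:**
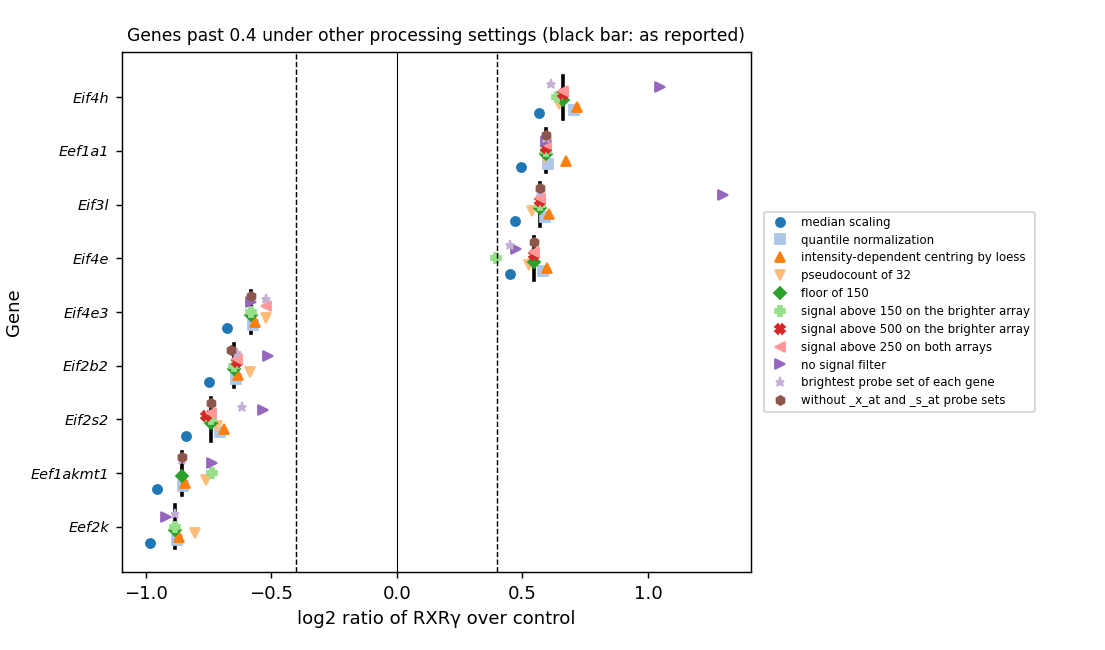
Values of the 9 genes called higher or lower, as the log2 of RXRγ over control signal, as reported (black bars) and under 11 other processing settings (symbols), with dashed lines at 0.4 in either direction. Among the higher genes the symbol inside the dashed lines is that of Eif4e with signals above 150 admitted (0.39), Eif2s2 without a signal filter (-0.53) is beyond the line but not called, and the symbol furthest to the right is Eif3l without a signal filter (1.30).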

How the data were processed

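Per the study's methods, the authors hybridized pooled RNA of each genotype to 1 Affymetrix MG430 array and made 1 signal per probe set with the Affymetrix software, comparing perfectly matched with mismatched oligonucleotides. As deposited, intensity values are linear and scaled, with a trimmed mean of 100 on both arrays once the outer 2% of probe sets were left out. The scaling algorithm, the present calls and the genome build are not given in the sources used here. Gene names came from the platform annotation, and the gene IDs of the 58 members matched RefSeq on GRCm38.p6 with the same symbols. The log2 ratio of RXRγ over control was averaged over a gene's probe sets above 250 on the brighter array, without a pseudocount, and called at 0.4, the fold of the study's methods. A gene with probe sets past 0.4 in both directions was called neither. Members, lists and settings were chosen with earlier results of these data known. Measured members could be named, called ones with their signals at each measured probe set, and up to 4 genes of each other list with the largest change, while any others named were chosen after their values were seen. No p-values were computed, since 1 array per genotype has no replicate, and the number of arrays limits precision. The steps were tested on simulated data with changes of 1 on the log2 scale in bright genes. That test does not cover changes as small as those of the factors. Alternatives were median scaling, quantile normalization, loess centring (limma 3.58.1 in R 4.3.3, span 0.3), a pseudocount of 32, a floor of 150, signals above 150 or 500 on the brighter array, above 250 on both or no filter, the brightest probe set, no _x_at or _s_at probe sets, counting probe sets and a threshold of 1. Python 3.11.15, pandas 2.3.3, numpy 2.4.6, scipy 1.17.1 and matplotlib 3.10.9 were used.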

Additional observations from a re-analysis of the deposited data

How the results depend on the processing

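The counts of 4 higher and 5 lower factors stayed within 1.5 times under quantile normalization, loess centring, the pseudocount and the floor. They did so too under the filter of 150, the brightest probe set and the removal of _x_at and _s_at probe sets, but with other genes. The filter of 150 dropped Eif4e and added Eif1ad (higher) and Eif2b3 (lower). The brightest probe set added Eif5b (higher) and Eif4b (lower). Without _x_at and _s_at probe sets, Eif4h and Eef2k were not measured. Median scaling left 4 higher and 11 lower, against 13.1% and 26.5% of all genes, so the lower share was about that of all genes. The filter of 500 left 2 lower and a signal above 250 on both arrays 3, with 28 and 36 factors measured and 21.2% and 16.4% of all genes lower. Both settings left 4 higher, against 16.4% and 12.1% of all genes. Neither setting measured Eef2k or Eef1akmt1, which passed 250 on the control array only. Without a filter 9 of 58 were higher and 10 lower, against 28.6% and 22.6% of all genes, and at a threshold of 1 there were 0 and 0, against 5.05% and 4.1%. Counted by probe set, 74 were measured, 9 were higher and 18 lower, against 17.2% and 20.9% of all measured probe sets. The lower share was a little above that of all probe sets, but 5 of the 18 belong to Eif2s2 and are not independent. Without a filter, the log2 ratios of Eif2a, Eif3l and Eef2 were -1.33, 1.30 and 2.01, since probe sets with signals under 50 entered the mean, and Eif2s2 lost its call because its dimmest probe set went the other way. The members' median stayed between -0.13 and 0.09. No paired analysis was possible because each genotype has 1 array, and for the same reason no replicate could be left out.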
